A study of Mus musculus with 6 samples.

Results

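The mitochondrial ribosome and the machinery that brings proteins into mitochondria were followed across 3 groups of Neuro-2a cells, a line from a mouse neuroblastoma that can be driven towards a neuron-like shape. Members were all rows of the deposited expression table whose symbol starts with Mrpl, Mrps, Timm or Tomm followed by a digit. There were 101 such rows among 21878, made up of 48 Mrpl, 29 Mrps, 14 Timm and 10 Tomm genes. The rule goes by name and used no measured value. It takes in Tomm34, a cytosolic co-chaperone, and Mrps36, now placed in the oxoglutarate dehydrogenase complex and not in the ribosome, and it places Mrps18a and Mrps30, proteins of the large subunit, among the Mrps names.

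The 6 libraries were 2 from Neuro-2a cells overexpressing the long noncoding RNA lncPim1, 2 from cells with RNA interference against lncPim1 (knockdown), and 2 from control cells labelled wild type. The title of the series asks about neuron-like differentiation and the regrowth of neurites after injury, but the labels of these libraries name no injury, time or dose. They name no empty vector and no scrambled RNA for the control, and give no sign of whether replicates were separate cultures. The p-values therefore cover no more than the spread from library to library, and this may be technical. Values are FPKM, fragments per transcript length and per library total, which give no read counts and so no counting error.

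Mitochondria keep a small genome of their own and translate its messages on a ribosome whose protein subunits are all made from nuclear genes. These proteins carry Mrpl names for the large subunit and Mrps names for the small one. Some have counterparts in bacterial ribosomes, and others are found only in mitochondria. They reach the organelle, like most mitochondrial proteins, through the TOM complex of the outer membrane and the TIM complexes of the inner membrane. Tomm20, Tomm22 and Tomm70a are receptors, Tomm40 is the outer pore, Timm23 and Timm17a or Timm17b build the inner channel for proteins with a cleavable presequence, and the small Timm proteins chaperone membrane proteins across the space between the membranes.

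Across the whole table, 10721 rows with a mean of at least 1 FPKM were tested. Summed FPKM was 294510 and 303139 in overexpression libraries, 277508 and 272528 in knockdown libraries, and 298032 and 305463 in control libraries. Spearman correlations over tested rows were 0.995 to 0.997 within a group, and 0.976 to 0.984 between a knockdown library and any library of the other groups. No row of the table carries the name lncPim1 (0 rows), so its level was not analysed here and the group labels could not be checked against it. Pim1, the kinase gene in its name, had 23.5 and 24.1 FPKM in overexpression libraries, 24.4 and 23.1 FPKM in knockdown libraries, and 16.2 and 18.8 FPKM in control libraries. Against control it was called higher under knockdown (0.42, limma adjusted p = 0.00179) and under overexpression (0.43, limma adjusted p = 0.0294). The overexpression call held in 11 of the 18 alternative fits, with log2 differences of 0.33 to 0.52 over all 18. Among the fits where it was lost were those with no filter (limma adjusted p = 0.140), no expression trend (0.0621) and the replicate block (0.0544). It was also lost without control 1, where the difference was 0.33, and without either overexpression library. Pim2 and Pim3 were not called against control. Pim2 was lower in overexpression than in knockdown libraries (limma adjusted p = 0.0184). That call held in 14 of the 18 alternative fits. It was lost with no filter (limma adjusted p = 0.0711), without either overexpression library and without knockdown 1. The 11 markers of Neuro-2a cells that are reported here all had a mean of at least 1 FPKM. Of the markers listed for other cells, 0 of 5 for macrophages, 0 of 5 for fibroblasts and 1 of 3 for endothelium reached that mean, while 10 of 10 digestive tract markers did. Digestive tract markers summed to 23.7 and 34.3 FPKM in overexpression libraries, 0.623 and 0.547 in knockdown libraries, and 30.0 and 22.8 in control libraries. In both knockdown libraries, 7 of the 10 were listed at 0, among them Reg1, Fabp1 and Tff2. The Neuro-2a markers summed to 943 and 1024 FPKM in overexpression libraries, 768 and 787 in knockdown libraries, and 1118 and 1087 in control libraries. Of these 11 markers, 9 were below all other libraries in both knockdown libraries, and Isl1 and Mycn were not. All 10 digestive tract markers were. Both sums were lowest in the knockdown libraries, where the members' sum was also lowest, and their part in the results on members was not tested.

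The members had 3609 and 3744 summed FPKM in overexpression libraries, 3222 and 3207 in knockdown libraries, and 3698 and 3730 in control libraries. Both knockdown sums were below the other 4, which overlapped. As a share of all FPKM, the members took 1.23% and 1.24% under overexpression, 1.16% and 1.18% under knockdown, and 1.24% and 1.22% in control. In bulk samples, fewer cells of a type and less RNA per cell cannot be told apart. In control cells the mean level ran from 5.65 to 131.9 FPKM over the Mrpl genes, with a median of 22.8, and from 4.13 to 103 FPKM over the Mrps genes, with a median of 31.5. The median was 22.8 FPKM over the Timm genes and 41.6 FPKM over the Tomm genes. Of the 101 members, 99 passed the filter on low values. Tomm20l was listed at 0 in all 6 libraries, and Timm8a2 was at most 0.04 FPKM in any of them.

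In every family some members were lower in knockdown than in control libraries. The largest falls were in Timm23 of the inner membrane channel and Mrpl20 of the large subunit. With limma on log2(FPKM + 1) and Benjamini-Hochberg adjustment over all tested rows at 0.05, 48 of the 99 tested members fell in knockdown against control, 3 rose and 48 were not called. Of all tested rows, 31.3% fell and 14.8% rose. Rows of equal level in control fell at a share near that of the members in most of the range, as given below. The members' median log2 difference was -0.16, against -0.07 over all tested rows, and 76 of the 99 lay below 0. No member changed by 1 or more on the log2 scale: the range was -0.75 to 0.29. Scaling of the libraries set much of the balance. Over all rows, 32.1% of the calls were rises, against 49.5% after scaling by the median log ratio and 46.6% after quantile normalization. Under these scalings 33 and 25 members fell and 10 rose, and the members' median stayed below 0 at -0.08 and -0.06. Of all tested rows 21.3% and 21.4% fell and 20.9% and 18.7% rose, with medians of 0.005 and -0.014. After quantile normalization the members' share that fell was thus near that of all rows.

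**Figure D1:**
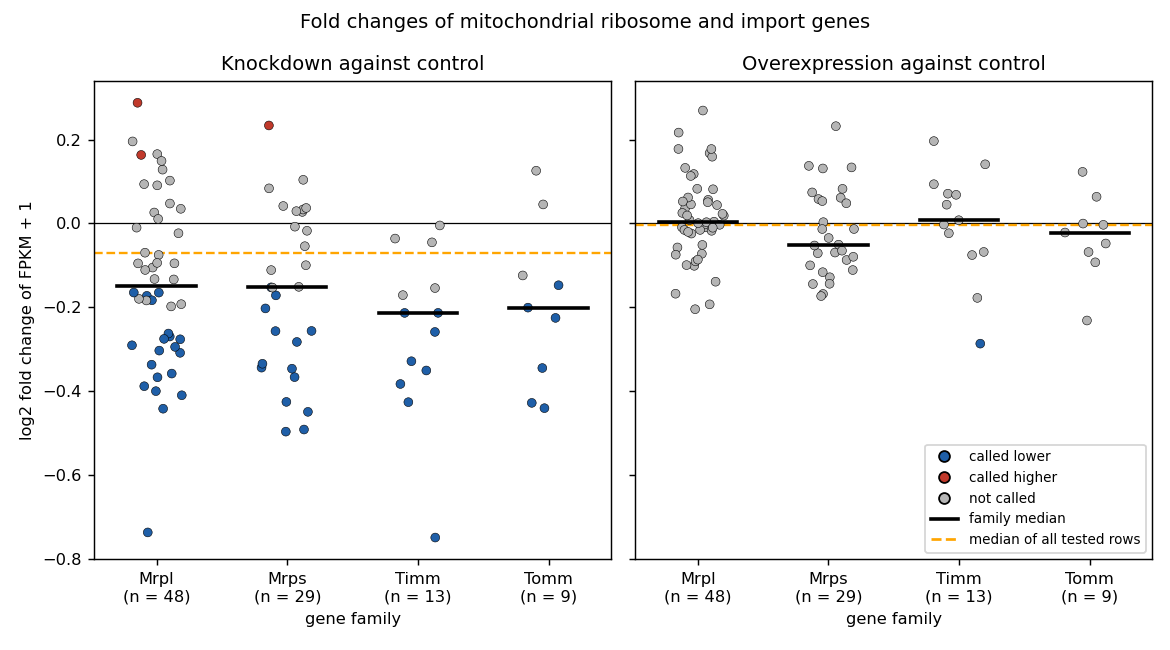
Log2 fold change of FPKM + 1 for the 99 tested members by gene family, for knockdown against control (left panel) and overexpression against control (right panel), with 1 point per member coloured by its limma call, a bar at the family median and a dashed line at the median of all tested rows. In the left panel the lowest points, Timm23 and Mrpl20, lie at -0.75 and -0.74, and in the right panel 1 point is called.

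Among roles with more than 1 tested gene, the share that fell was highest in the outer membrane complex, the TIM23 complex and the small chaperones. Of all tested rows 31.3% fell, and the roles were not set against rows of equal level. In the outer membrane complex, 6 of 8 tested members fell and 0 rose, with a median log2 difference of -0.21. In the TIM23 complex, 4 of 6 fell, with a median of -0.24, and 4 of 6 small intermembrane space chaperones fell, with a median of -0.27. Of the large-subunit proteins with a bacterial counterpart, 14 of 30 fell and 2 rose. Of those specific to mitochondria, 8 of 20 fell. In the small subunit, 6 of 17 proteins with a bacterial counterpart fell and 1 rose, and 5 of 9 mitochondria-specific ones fell. Over the families, 34 of 77 Mrpl and Mrps genes and 14 of 22 tested Timm and Tomm genes fell. After scaling by the median log ratio 24 and 9 fell, and after quantile normalization 18 and 7, against 21.3% and 21.4% of all tested rows. No test of the difference between the families was made.

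**Figure D2:**
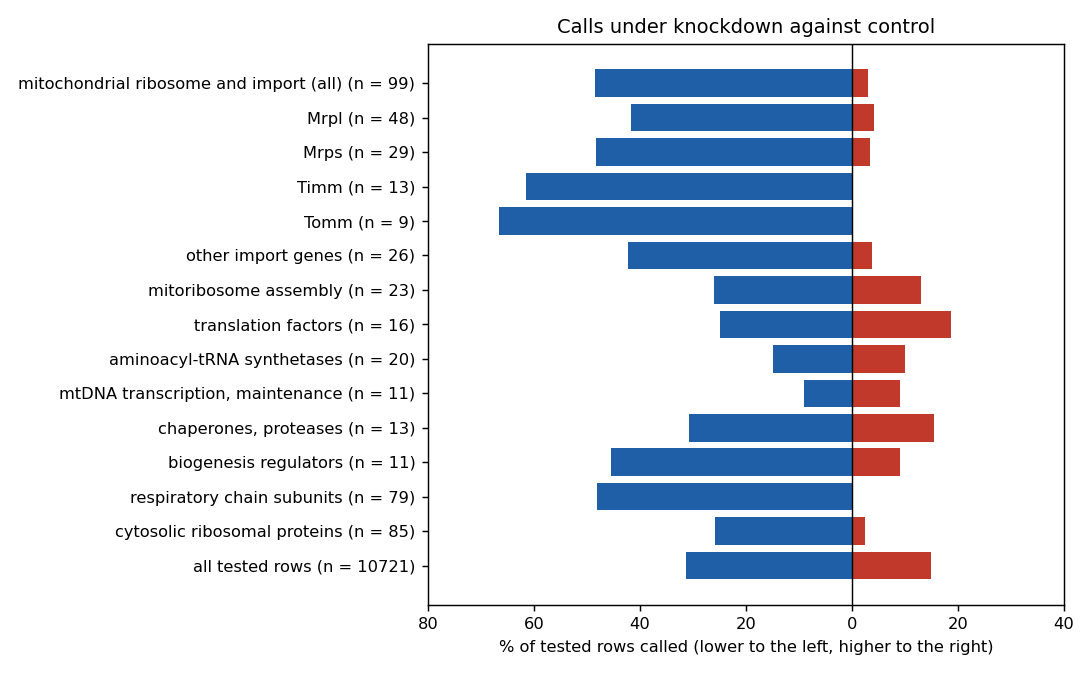
Percent of tested rows called lower (bars to the left of 0) and higher (bars to the right) in knockdown against control, by limma at an adjusted p under 0.05, for the members, their families, related lists and all 10721 tested rows. Lower calls reach 8 of 13 Timm and 6 of 9 Tomm genes, and 31.3% of all rows.

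The largest fall of a single member was in Timm23, the central subunit of the inner membrane channel. Timm23 had 40.1 and 39.6 FPKM in overexpression libraries, 28.0 and 29.2 FPKM in knockdown libraries, and 48.9 and 48.8 FPKM in control libraries. The 3 groups did not overlap, with knockdown lowest and control highest. The log2 difference of knockdown from control was -0.75 ± 0.05 (SE; limma adjusted p = 6.76e-05). Timm17a, its partner in the channel, had 101 and 99.1 FPKM under overexpression, 73.8 and 75.2 under knockdown, and 94.0 and 96.6 in control, a knockdown difference of -0.35 ± 0.05 (limma adjusted p = 5.48e-04). Timm17b, the other form of that partner, was lower in level, with 9.50 and 10.03 FPKM under overexpression, 9.11 and 8.46 under knockdown, and 9.96 and 10.7 in control. Its fall of -0.21 ± 0.07 (limma adjusted p = 0.0277) was not called without knockdown 2 (adjusted p = 0.129) or control 2 (adjusted p = 0.166), nor with no filter (0.0569) or under the 2 scalings (0.116 and 0.0883). Timm50, the receptor that hands presequences to the channel, had 46.7 and 49.5 FPKM under overexpression, 41.3 and 40.1 under knockdown, and 52.0 and 45.9 in control. It fell by 0.26 (limma adjusted p = 0.0118), and the call was lost without knockdown 2 (adjusted p = 0.0512) or control 1 (adjusted p = 0.0915), and under the 2 scalings (0.0627 and 0.217). Timm44, which anchors the import motor, had 28.6 and 27.9 FPKM under overexpression, 25.1 and 26.4 under knockdown, and 25.7 and 27.1 in control, and was not called (-0.04 ± 0.05, limma adjusted p = 0.612). Timm22, the channel for carrier proteins, was not called either, with 11.3 and 11.4 FPKM under overexpression, 10.3 and 9.72 under knockdown, and 11.9 and 10.9 in control (-0.17 ± 0.06, limma adjusted p = 0.0528).

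The promoters of Timm23 and of 3 other members whose fall was among the 12 largest are given here, since the letters of factors that are known to act on nuclear genes for mitochondria occur in them. The windows, 250 bases before to 50 after the RefSeq start on GRCm38.p6, were chosen after the values and matches were seen. Timm23 is at chr14:32201842-32202141 (minus strand), Mrps21 at chr3:95871465-95871764 (minus), Tomm22 at chr15:79670618-79670917 (plus) and Mrps11 at chr7:78782881-78783180 (plus). Capitals mark matches, on either strand, to CCGGAAG (ETS factors such as GABP; CTTCCGG on the other strand), GCGCANGCG (NRF1) or AANATGGCG (YY1). Each sequence runs 5′ to 3′ along the strand of its gene.
Timm23: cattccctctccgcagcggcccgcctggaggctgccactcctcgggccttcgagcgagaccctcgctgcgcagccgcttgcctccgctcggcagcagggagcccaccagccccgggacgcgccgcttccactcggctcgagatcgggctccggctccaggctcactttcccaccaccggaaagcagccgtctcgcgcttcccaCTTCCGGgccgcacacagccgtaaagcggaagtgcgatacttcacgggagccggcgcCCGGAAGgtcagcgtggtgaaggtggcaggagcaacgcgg
Mrps21: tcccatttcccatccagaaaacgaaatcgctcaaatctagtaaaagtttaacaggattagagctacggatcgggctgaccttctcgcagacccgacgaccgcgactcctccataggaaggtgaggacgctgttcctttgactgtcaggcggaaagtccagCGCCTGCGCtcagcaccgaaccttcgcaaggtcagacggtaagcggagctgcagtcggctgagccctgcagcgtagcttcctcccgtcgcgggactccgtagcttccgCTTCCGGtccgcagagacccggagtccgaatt
Tomm22: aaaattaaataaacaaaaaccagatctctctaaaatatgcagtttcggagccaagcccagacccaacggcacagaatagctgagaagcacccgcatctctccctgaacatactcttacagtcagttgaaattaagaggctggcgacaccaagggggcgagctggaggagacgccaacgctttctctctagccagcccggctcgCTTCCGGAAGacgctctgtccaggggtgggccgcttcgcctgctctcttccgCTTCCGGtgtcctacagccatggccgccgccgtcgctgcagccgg
Mrps11: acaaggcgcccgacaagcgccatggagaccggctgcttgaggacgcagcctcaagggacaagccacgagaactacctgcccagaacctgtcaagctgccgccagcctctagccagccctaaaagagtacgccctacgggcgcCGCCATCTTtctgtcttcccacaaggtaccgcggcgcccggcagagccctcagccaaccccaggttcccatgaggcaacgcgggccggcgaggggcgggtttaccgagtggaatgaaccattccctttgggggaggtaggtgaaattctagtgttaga
Timm23 and Tomm22 hold only ETS letters, and in Tomm22 a pair of the matches share bases. Mrps21 holds 1 NRF1 match ahead of the start and 1 ETS match after it, and Mrps11 holds 1 YY1 match. Timm23 starts 51 nt from the divergent gene Parg.

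Receptors of the outer membrane were also among the members that fell. Tomm22, which links the receptors to the pore, had 132 and 139 FPKM in overexpression libraries, 104 and 104 FPKM in knockdown libraries, and 137 and 143 FPKM in control libraries. Both knockdown libraries lay below the other 4, and the difference from control was -0.43 ± 0.05 (limma adjusted p = 3.31e-04). It was the member with the highest mean level in control. Tomm70a, the receptor for carrier proteins, had 91.9 and 94.6 FPKM under overexpression, 78.0 and 75.6 under knockdown, and 94.6 and 101 in control (-0.34 ± 0.05, limma adjusted p = 0.00102). Tomm5, a small subunit that steadies the pore, had 38.8 and 42.5 FPKM under overexpression, 29.4 and 30.9 under knockdown, and 41.3 and 41.2 in control (-0.44 ± 0.06, limma adjusted p = 5.68e-04). In each of these the knockdown libraries did not overlap with the others. Tomm20, the presequence receptor, stood close to the threshold, with 55.8 and 54.1 FPKM under overexpression, 51.1 and 54.7 under knockdown, and 58.0 and 59.3 in control. Its fall of 0.15 (limma adjusted p = 0.0433) was lost in 13 of the 18 alternative fits, among them those without knockdown 1 (adjusted p = 0.206), control 1 (0.108), control 2 (0.180) or either overexpression library (0.0557 and 0.0555). Quantile normalization turned its difference to 0.02 (limma adjusted p = 0.757). Tomm40, the pore itself, was not called, with 44.3 and 47.3 FPKM under overexpression, 36.9 and 39.9 under knockdown, and 43.2 and 40.7 in control (-0.12 ± 0.06, limma adjusted p = 0.121).

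Among the small chaperones Timm9 fell and its partner Timm10 was not called, a difference between them that was not tested. Timm9, which forms a ring with Timm10, had 17.9 and 15.9 FPKM in overexpression libraries, 13.7 and 14.4 FPKM in knockdown libraries, and 19.1 and 19.3 FPKM in control libraries, a knockdown difference of -0.43 ± 0.06 (limma adjusted p = 0.00116). Timm10 had 35.3 and 34.6 FPKM under overexpression, 30.1 and 30.5 under knockdown, and 29.6 and 31.2 in control, and its knockdown and control libraries overlapped (limma adjusted p = 0.947). Timm8a1, counterpart of the human gene mutated in a deafness and dystonia syndrome, had 19.4 and 22.0 FPKM under overexpression, 13.4 and 14.8 under knockdown, and 17.4 and 19.996 in control (-0.38 ± 0.09, limma adjusted p = 0.00709). Without control 2 its adjusted p was 0.0561. Its relative Timm8b had 94.3 and 93.4 FPKM under overexpression, 74.4 and 70.1 under knockdown, and 86.6 and 95.5 in control (-0.33 ± 0.06, limma adjusted p = 0.00243). After quantile normalization that call was lost (limma adjusted p = 0.0783).

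The ribosomal proteins that fell most came from both subunits. Mrpl20, a large-subunit protein whose bacterial counterpart binds ribosomal RNA early in assembly, had 76.6 and 83.6 FPKM in overexpression libraries, 50.4 and 57.1 FPKM in knockdown libraries, and 91.8 and 88.4 FPKM in control libraries. The groups did not overlap, and the knockdown difference was -0.74 ± 0.07 (limma adjusted p = 1.72e-04). Mrps21 and Mrps11, small-subunit proteins with bacterial counterparts, followed. Mrps21 had 37.5 and 40.0 FPKM under overexpression, 27.7 and 28.7 under knockdown, and 41.0 and 39.5 in control (-0.50 ± 0.05, limma adjusted p = 2.54e-04). Mrps11 had 13.1 and 13.4 FPKM under overexpression, 10.1 and 10.1 under knockdown, and 14.4 and 14.7 in control (-0.49 ± 0.05, limma adjusted p = 2.68e-04). In both genes the knockdown libraries lay below all others.

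The other ribosomal genes among the 12 largest falls had differences of -0.44 to -0.40. Mrpl42, a mitochondria-specific protein of the large subunit, had 60.9 and 72.5 FPKM under overexpression, 49.9 and 52.5 under knockdown, and 72.8 and 67.1 in control (-0.44 ± 0.08, limma adjusted p = 0.00273). Mrps35, a mitochondria-specific protein of the small subunit, had 19.9 and 22.4 FPKM under overexpression, 15.8 and 16.7 under knockdown, and 23.3 and 21.1 in control (-0.43 ± 0.07, limma adjusted p = 0.00209). In these genes overexpression and control overlapped and knockdown stood below. Mrps36, of the oxoglutarate dehydrogenase complex, had 90.5 and 92.0 FPKM under overexpression, 74.9 and 75.3 under knockdown, and 102 and 104 in control (-0.45 ± 0.04, limma adjusted p = 1.86e-04), and its 3 groups did not overlap. Mrpl33 and Mrpl34 are large-subunit proteins with bacterial counterparts. Mrpl33 had 112 and 124 FPKM under overexpression, 99.6 and 96.8 under knockdown, and 124 and 136 in control (-0.40 ± 0.07, limma adjusted p = 0.00161). Mrpl34 had 60.5 and 62.8 FPKM under overexpression, 57.5 and 48.7 under knockdown, and 76.5 and 65.1 in control (-0.41 ± 0.09, limma adjusted p = 0.00671), and its call was lost without control 1 (adjusted p = 0.0521) and after quantile normalization (0.0571).

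**Figure D3:**
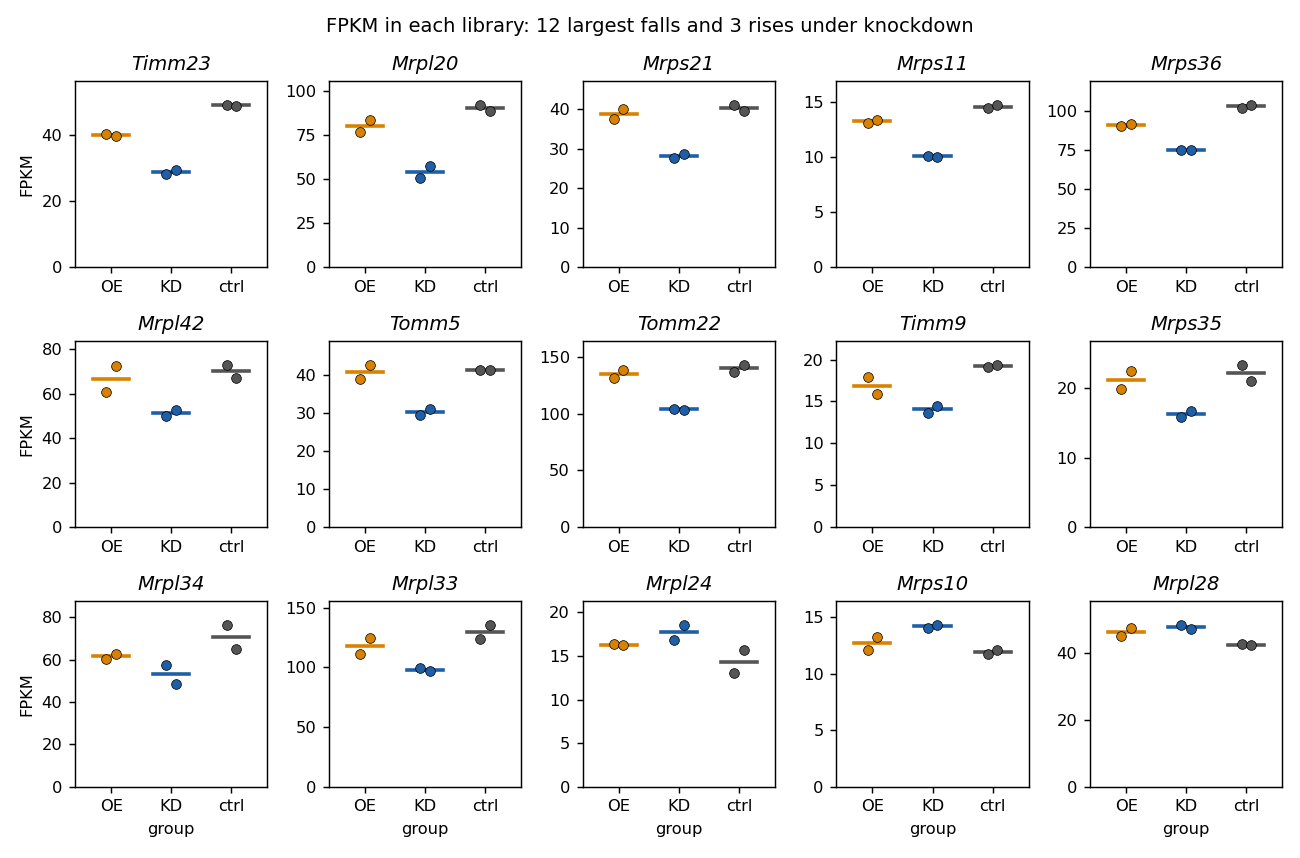
FPKM in each library for the 12 members with the largest falls and the 3 that rose under knockdown, with overexpression (OE), knockdown (KD) and control (ctrl) from left to right, 1 point per library and a bar at the mean of the 2 libraries. For Timm23 the knockdown points sit at 28.0 and 29.2 FPKM, below those of overexpression and control.

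The 3 members that rose under knockdown were Mrpl24, Mrps10 and Mrpl28, all with bacterial counterparts. Mrpl24 had 16.4 and 16.2 FPKM in overexpression libraries, 16.8 and 18.6 FPKM in knockdown libraries, and 13.0 and 15.7 FPKM in control libraries (0.29 ± 0.09, limma adjusted p = 0.0235). Mrps10 had 12.1 and 13.3 FPKM under overexpression, 14.1 and 14.3 under knockdown, and 11.7 and 12.1 in control (0.23 ± 0.06, limma adjusted p = 0.0135). Mrpl28 had 44.9 and 47.4 FPKM under overexpression, 48.3 and 46.9 under knockdown, and 42.5 and 42.3 in control (0.16 ± 0.05, limma adjusted p = 0.0245). In all 3 the knockdown libraries were above both control libraries, and in Mrpl28 they overlapped with overexpression. None of the 3 calls held without control 1, where the adjusted p-values were 0.162, 0.0798 and 0.0932. Without knockdown 2 the adjusted p was 0.121 for Mrpl24 and 0.0513 for Mrps10, and for Mrpl28 it was 0.0982 without knockdown 1 and 0.104 without control 2. Mrpl52, a mitochondria-specific protein and the second most abundant member in control, was not called, with 132 and 146 FPKM under overexpression, 151 and 140.5 under knockdown, and 117 and 146 in control (limma adjusted p = 0.240). After quantile normalization it was called higher (0.34, limma adjusted p = 0.0121). Its log2 difference was 0.31 without control 2 and -0.01 without control 1.

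Among members with a close relative, Timm17a and Timm17b both fell, as did Timm8a1 and Timm8b, and Tomm40 and Tomm40l were both not called. No difference between relatives was tested. Reads of such pairs may be shared, and the rule by which they were counted was not given in the sources used here. Tomm40l, a relative of the pore Tomm40, had 9.42 and 10.2 FPKM in overexpression libraries, 10.1 and 11.7 FPKM in knockdown libraries, and 9.35 and 10.4 FPKM in control libraries, with a difference of 0.13 ± 0.08 that was not called (limma adjusted p = 0.244). Mrps18a, of the large subunit, had 51.7 and 52.7 FPKM under overexpression, 38.8 and 43.4 under knockdown, and 44.5 and 50.5 in control. Its fall of 0.20 was close to the threshold (limma adjusted p = 0.0492), and it was lost without knockdown 1 (adjusted p = 0.257), control 2 (0.304) or either overexpression library (0.0638 and 0.0637), and under both scalings (0.198 and 0.605). Mrps18b, of the small subunit, was not called, with 34.0 and 33.1 FPKM under overexpression, 28.7 and 31.2 under knockdown, and 32.0 and 32.2 in control (limma adjusted p = 0.163). For Mrps18c, the other small-subunit form, the values were 55.4 and 62.9 FPKM under overexpression, 63.9 and 51.7 under knockdown, and 56.1 and 56.0 in control (limma adjusted p = 0.774). Timm10b, a relative of Timm10 in the carrier pathway, had 14.4 and 15.0 FPKM under overexpression, 13.2 and 12.8 under knockdown, and 15.3 and 13.9 in control, and was not called (limma adjusted p = 0.0686).

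**Figure D4:**
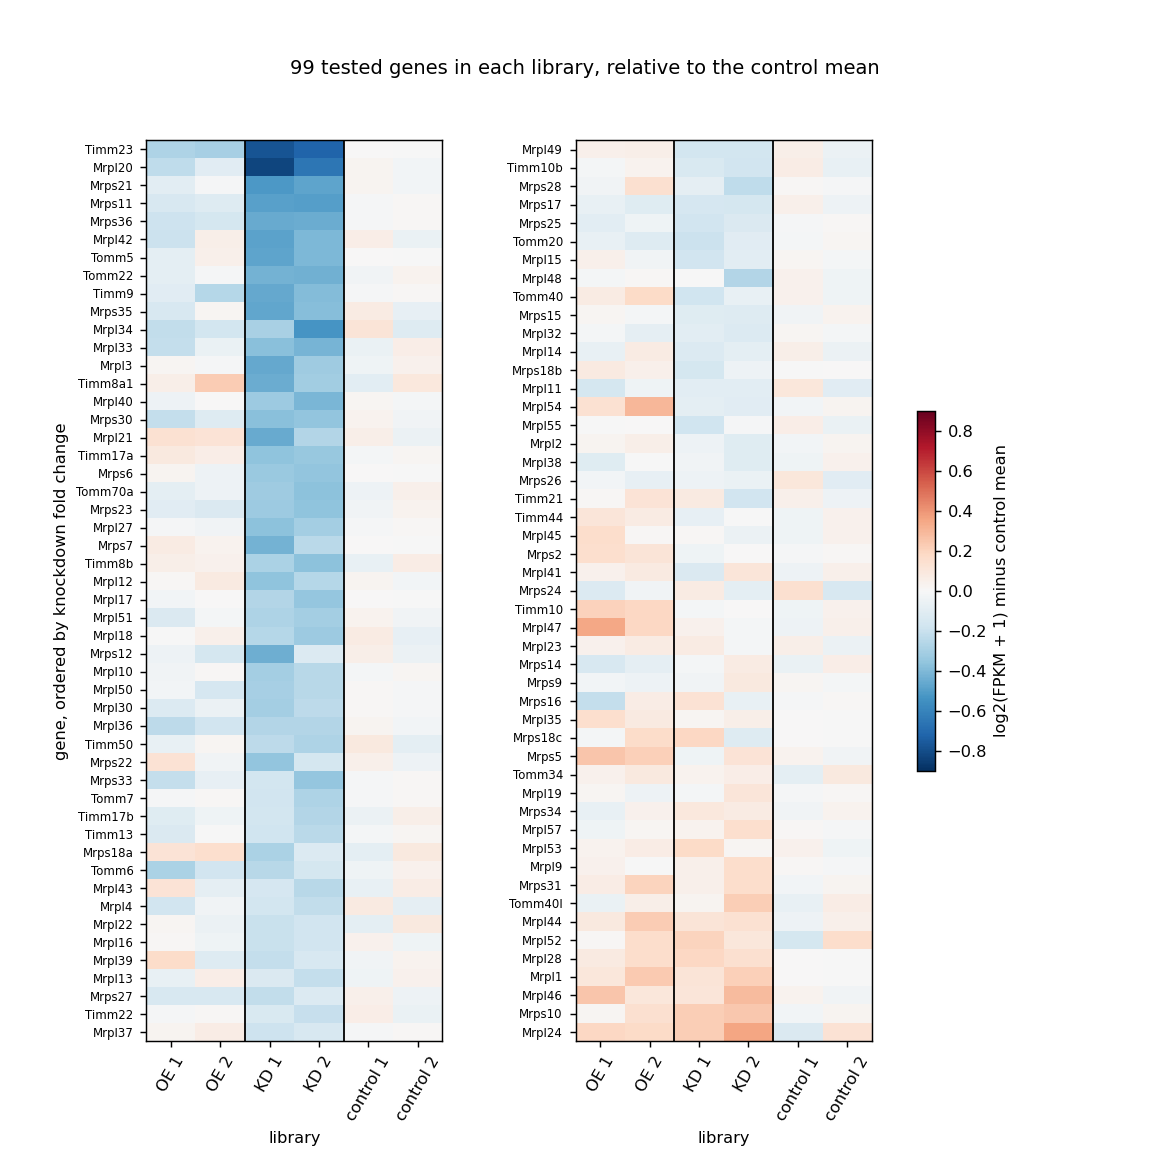
Difference of each library from the mean of the 2 control libraries, on the log2(FPKM + 1) scale, for the 99 tested members ordered by their knockdown difference, with blue lower and red higher, and columns for overexpression (OE), knockdown (KD) and control. The knockdown columns are darkest blue at the top, in Timm23 and Mrpl20.

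How highly a gene was expressed went with how often it fell. The bins of control level used here were chosen after the values were seen. Rises went the other way. Below 2 FPKM, 321 of 1073 rows rose and 7.4% fell, with a median log2 difference of 0.13. Rows of this bin under 1 FPKM in control passed the filter only through higher values in other groups. The rises in this bin are therefore partly set by the filter, and the control level is also the base of the difference. Between 2 and 5 FPKM, 444 of 2177 rows rose and 14.3% fell. At 100 FPKM and above, 18 of 497 rows rose. Among genes with 5 to 10 FPKM in control, 25.0% of 12 members and 24.8% of all tested rows fell under knockdown. Between 10 and 20 FPKM the shares were 35.0% of 20 members and 34.9% of all rows, and between 20 and 50 FPKM 47.6% of 42 members and 51.5% of all rows. In these 3 bins the members' share lay within 4 percentage points of that of all rows. Between 50 and 100 FPKM, 76.5% of 17 members fell, against 63.3% of all rows, and at 100 FPKM and above 5 of 6 members fell, against 56.7% of all rows. The median log2 difference between 50 and 100 FPKM was -0.28 over the members and -0.21 over all rows, and at 100 FPKM and above it was -0.35 and -0.19. Between 10 and 20 FPKM it was -0.16 over the members and -0.10 over all rows, and between 20 and 50 FPKM the members lay above all rows, at -0.14 and -0.17. Between 5 and 10 FPKM the medians were -0.06 and -0.05. The upper bins hold under 20 members each. The 48 falls therefore lie near the share seen in rows of equal level in most of the range, and nothing particular to the members is read from their count.

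**Figure D5:**
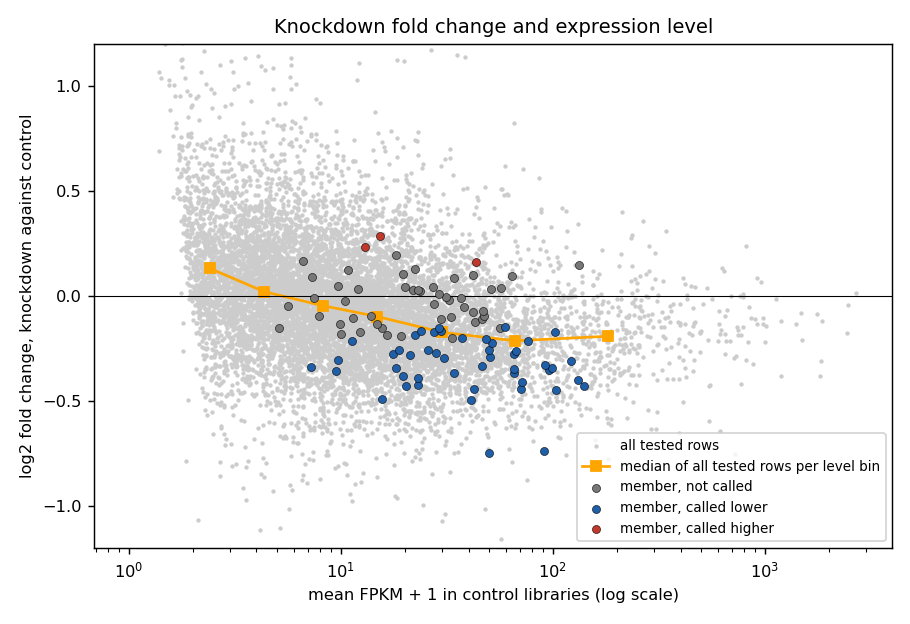
Difference of knockdown from control on the log2(FPKM + 1) scale against the mean FPKM + 1 in control on a log axis, for the members (coloured by call) and all tested rows (grey), with the median of all rows per level bin in orange. The vertical axis ends at 1.2 in both directions and leaves out 49 rows. The orange line lies at -0.17 between 20 and 50 FPKM and at -0.21 between 50 and 100 FPKM.

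Under overexpression, 1 of 99 tested members was called against control and fell, and 0 rose. Of all tested rows 0.849% fell and 0.690% rose. The 1 gene was Timm23, with 40.1 and 39.6 FPKM under overexpression and 48.9 and 48.8 FPKM in control, a log2 difference of -0.29 ± 0.05 (limma adjusted p = 0.0294). The call was lost in 8 of the 18 alternative fits, among them those without overexpression 1 (adjusted p = 0.146), overexpression 2 (0.113), control 1 (0.211) or control 2 (0.142). At an unadjusted p under 0.05 there were 18 of the 99 members (18.2%), against 17.1% of all tested rows. The members' median was 0.00 on the log2 scale, as over all rows. The widest difference upward was in Mrpl47, a large-subunit protein, with 36.0 and 32.1 FPKM under overexpression and 27.1 and 28.9 FPKM in control, which was not called (0.27 ± 0.07, limma adjusted p = 0.0888) and is named here after its values were seen. The comparison shares its control libraries with that of knockdown.

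Set against knockdown, overexpression libraries had 46 of 99 tested members higher and 0 lower, against 28.1% and 12.4% of all tested rows. The knockdown libraries are those of the comparison with control, so the 2 results are not independent. Of the 48 members that fell under knockdown against control, 38 were among these 46. The count was not set against rows of equal level. The median log2 difference of overexpression from knockdown was 0.17 over the members and 0.07 over all rows. By family, 20 of 48 Mrpl, 14 of 29 Mrps, 7 of 13 Timm and 5 of 9 Tomm genes were higher. After scaling by the median log ratio 28 members were higher and 4 lower, against 18.2% and 17.8% of all tested rows. After quantile normalization 20 were higher and 6 lower, against 18.0% and 15.9% of all tested rows, so the share that was higher lay near that of all rows. Of all called rows 69.3% were higher, against 50.6% and 53.1% under these scalings. The 5 largest differences were in Mrpl20 (0.57 ± 0.07, limma adjusted p = 6.89e-04), Timm8a1, Mrpl21, Timm23 and Mrps21. Mrpl21, a large-subunit protein with a bacterial counterpart, had 9.40 and 9.31 FPKM in overexpression libraries and 5.91 and 6.86 FPKM in knockdown libraries (limma adjusted p = 0.00185), and in control libraries it had 8.81 and 8.10 FPKM. Timm8a1 differed by 0.52 (limma adjusted p = 0.00224). Tomm40 and Timm10, which were not called in knockdown against control, were higher under overexpression than under knockdown, by 0.25 (limma adjusted p = 0.0119) and 0.20 (limma adjusted p = 0.0129), calls that were lost under both scalings (0.0592 and 0.154 for Tomm40, 0.0748 and 0.188 for Timm10). The call of Tomm40 was also lost without overexpression 2 (adjusted p = 0.0765) or knockdown 1 (0.0671), and that of Timm10 without overexpression 1 (0.0657) or knockdown 1 (0.0517) and with length and GC trends removed (0.0536).

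Genes that act with the members but carry other names were taken from lists of their known roles. Of 6 mitochondrial ribosomal proteins named otherwise, 1 fell under knockdown and 0 rose, against 31.3% and 14.8% of all tested rows. This was Ptcd3, a small-subunit protein, with 25.7 and 25.9 FPKM under overexpression, 19.5 and 21.2 under knockdown, and 25.9 and 24.2 in control (-0.29 ± 0.06, limma adjusted p = 0.00512), a call lost after quantile normalization (limma adjusted p = 0.0669). Of 26 genes for the import motor, sorting, processing and assembly, 11 fell (42.3%) and 1 rose, against the same shares of all rows. Samm50, which inserts barrel proteins into the outer membrane, had 111 and 115 FPKM under overexpression, 77.6 and 80.6 under knockdown, and 111 and 109.5 in control (-0.47 ± 0.05, limma adjusted p = 1.99e-04). Chchd4, the oxidoreductase that traps small proteins between the membranes, had 32.9 and 31.8 FPKM under overexpression, 23.2 and 25.0 under knockdown, and 31.2 and 32.7 in control, and fell too. Pam16, of the import motor beside Timm44, had 25.5 and 24.8 FPKM under overexpression, 20.5 and 19.6 under knockdown, and 25.4 and 25.1 in control (-0.32 ± 0.05 on the log2 scale), a further fall. Atad1, which extracts misplaced tail-anchored proteins from the outer membrane, fell by 0.36 (limma adjusted p = 6.19e-04).

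Of 23 assembly factors of the mitochondrial ribosome, 6 fell (26.1%) and 3 rose (13.0%) under knockdown, close to the 31.3% and 14.8% over all tested rows. Noa1, a GTPase of small-subunit assembly, had 21.4 and 22.0 FPKM under overexpression, 15.1 and 14.0 under knockdown, and 21.1 and 19.7 in control (-0.46 ± 0.06, limma adjusted p = 5.81e-04), while Mtg1, a GTPase of large-subunit assembly, rose (0.42 ± 0.07, limma adjusted p = 0.00186). The RNA helicase Dhx30 and the small-subunit factor Rbfa fell, with log2 differences of -0.33 and -0.34. Of 16 translation factors 4 fell and 3 rose (18.8%), again close to the share of all rows. Guf1, the mitochondrial counterpart of a bacterial elongation factor that moves ribosomes backwards, had 4.45 and 4.28 FPKM under overexpression, 7.19 and 7.59 under knockdown, and 4.21 and 4.29 in control (0.68 ± 0.07, limma adjusted p = 1.86e-04). The initiation factor Mtif2 rose as well, by 0.33, while the elongation factor Gfm1 and the RNA-binding protein Lrpprc fell, with differences of -0.34 and -0.28. Of 20 mitochondrial aminoacyl-tRNA synthetases and their partners 3 fell and 2 rose, of 11 genes for mitochondrial DNA 1 fell and 1 rose, and of 13 chaperones and proteases 4 fell and 2 rose. Over all tested rows 31.3% fell and 14.8% rose. Lars2, which charges leucine tRNA, had 12.9 and 11.5 FPKM under overexpression, 17.1 and 18.9 under knockdown, and 11.7 and 12.9 in control, a rise of 0.51. Vars2, for valine, rose by 0.37, and Rars2, for arginine, and Gatc, a subunit of an amidotransferase that acts on charged tRNA, had log2 differences of -0.46 and -0.34. Polg2, the accessory subunit of the mitochondrial DNA polymerase, rose by 0.55, and Ssbp1, which binds single-stranded mitochondrial DNA, fell by 0.18 (limma adjusted p = 0.0313). The call of Ssbp1 was lost under both scalings, with the replicate block (adjusted p = 0.0546), and without knockdown 1 (0.131), control 1 (0.168) or control 2 (0.0632). Hspd1, the chaperonin of the matrix, had 264 and 267 FPKM under overexpression, 221 and 209 under knockdown, and 247 and 259 in control, a fall of 0.23. The prohibitin Phb and the protease subunit Afg3l1 also fell, with log2 differences of -0.39 and -0.28, and the protease Htra2 rose by 0.35.

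Of 79 subunits of the respiratory chain, which the mitochondrial ribosome supplies in part, 38 fell (48.1%) and 0 rose under knockdown, with a median log2 difference of -0.16, against 31.3% and 14.8% of all tested rows and their median of -0.07. Of 85 cytosolic ribosomal proteins 22 fell (25.9%) and 2 rose, with a median of -0.10. Of 11 nuclear regulators of mitochondrial genes 5 fell (45.5%) and 1 rose. No test of a list against other rows was made, and no list here or above was set against rows of equal level. Gabpa, the DNA-binding subunit of GABP, had 14.7 and 13.9 FPKM under overexpression, 10.5 and 10.6 under knockdown, and 13.9 and 14.5 in control (-0.39 ± 0.06). Its partner Gabpb2 and Max, the partner of MYC, had log2 differences of -0.37 and -0.38, both called. Yy1 had 24.3 and 22.1 FPKM under overexpression, 20.2 and 20.5 under knockdown, and 23.9 and 23.6 in control, and its fall (limma adjusted p = 0.0155) was lost without knockdown 1 (adjusted p = 0.0568), control 1 (0.0773) or control 2 (0.0629), and under both scalings (0.0958 and 0.208). In overexpression against control, 1 respiratory chain gene fell and no other gene of these lists was called.

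The promoters of the members were searched for the letters of these factors, as in the sequences above. RefSeq windows were matched to 89 members, giving 97 windows among 32851, which were taken whatever the level of their genes. ETS letters stood in 35.1% of the members' windows and in 8.86% of all windows. NRF1 letters stood in 19.6% against 6.25%, YY1 letters in 12.4% against 2.38%, and CACGTG, the E-box of MYC, in 12.4% against 7.15%. At least 1 of ETS, NRF1 and YY1 was found in 56.7% of the members' windows and 15.4% of all windows. Of the 32 tested members with ETS letters 19 fell under knockdown, with a median log2 difference of -0.26, and of the 55 without 26 fell, with a median of -0.15. With NRF1 letters 8 of 19 fell, and without them 37 of 68. With YY1 letters 9 of 12 fell, and without them 36 of 75. With the E-box 6 of 9 fell, and without it 39 of 78. Of all tested rows 31.3% fell, and none of these splits was set against rows of equal level. They are descriptions without a test, and a match is not a binding site. Nothing about the factors is read from them.

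The members were also described by position and size. The rows set beside them here include rows that did not pass the filter on low values. The members lie on 20 chromosomes in GENCODE's annotation of GRCm38. A protein-coding start on the opposite strand lay within 1000 nt of the start of 40 members (39.6%), such as Mrps11 and Mrpl46, against 11.0% of all rows matched to protein-coding genes. Counting only starts upstream, where the genes do not run across each other's start, there were 23 members (22.8%), against 6.9% of all rows. Their median transcript length was 1398 nt, against 2783 nt, and their median GC content 49.9%, against 49.2%. Timm23 spans chr14:32180162-32201898 and Mrpl20 chr4:155802878-155809975. The exons of 34 tested members share bases with another gene, among them Timm17b, Tomm70a, Tomm40, Tomm40l, Timm8b, Timm9, Timm10b, Mrpl33, Mrpl24, Mrpl21, Mrpl47, Mrps18b and Mrps18c. The use of strand in counting was not given in the sources used here. Reads in the shared bases therefore cannot be assigned to either gene. Of these 34, 20 fell under knockdown and 1 rose, and of the 65 others 28 fell and 2 rose, with median log2 differences of -0.20 and -0.15. Of all tested rows 31.3% fell and 14.8% rose. The difference between the 2 sets was not tested, and neither was set against rows of equal level.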

How the data were processed

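Poly(A)-selected, stranded libraries from Neuro-2a cells were sequenced, per the labels' protocols. The authors deposited FPKM per gene symbol. The submitters' processing notes name build mm10 and the tools Trimmomatic, HISAT2, Cufflinks, HTSeq and DESeq. Their versions and settings were not given in the sources used here. Because FPKM divides by each library's total, a change in abundant genes shifts all others. The depth is unknown.

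Rows averaging at least 1 FPKM were tested (10721 of 21878). Values were taken as log2(FPKM + 1), which understates the change of low genes. Limma 3.58.1 (R 4.3.3) fitted a mean for each of 3 groups, with moderation along an expression trend and 3 residual degrees of freedom. Adjusted p-values are Benjamini-Hochberg over all tested rows, called under 0.05.

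The members and lists were chosen with earlier results of these data known. Members named with every value are up to 12 falls and 8 rises by size against control among calls whose groups do not overlap, up to 5 in each direction between overexpression and knockdown, the 3 most abundant in control, paralogue sets, and channel and receptor subunits. From each other list, up to 4 called genes by smallest p are named, and Pim1, Pim2 and Pim3 are added. The alternatives were 19, given in the closing section. GENCODE and RefSeq tables of GRCm38 supplied positions and promoters. Not every listed Neuro-2a marker is reported here.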

Additional observations from a re-analysis of the deposited data

How the results depend on the processing

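The 3 comparisons were repeated with a filter at 5 FPKM, with no filter, under pseudocounts of 0.1 and 0.5, both scalings, other moderation, only the 4 libraries compared, a replicate block, removal of length and GC trends, each library left out, and without members that share exon bases with another gene. Of 48 members that fell under knockdown, 24 were called in every one of the 18 fits and 31 in every fit without a library. A fit without a library leaves 1 in its group, assumed to vary like the others.

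In knockdown against control, 25 members fell after quantile normalization, against 21.4% of all tested rows. Among the 65 members without shared exon bases 28 fell, against 31.3% of all tested rows. Under each scaling 10 rose, against 20.9% of all rows by median log ratio and 18.7% by quantile normalization. Without a library 0 to 3 rose. The median log2 difference was -0.084 by median log ratio, -0.059 by quantile normalization and -0.133 with length and GC trends removed, with or without the replicate block, and -0.167 to -0.142 without a library. Tomm20 turned to 0.0245 by quantile normalization.

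In overexpression against control, 0 members fell with no filter, with no expression trend, with the replicate block, and with the block and length and GC trends removed, and 0 to 1 without a library. Over all rows 165 calls became 9, 97, 66 and 73 in the same order, and 14 to 172 without a library.

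In overexpression against knockdown, 28 members were higher and 4 lower by median log ratio, against 18.2% and 17.8% of all tested rows. By quantile normalization 20 were higher and 6 lower, against 18.0% and 15.9%. Among the 65 members without shared exon bases 28 were higher, against 28.1% of all tested rows. With length and GC trends removed 1 member was lower, with or without the block. The median was 0.091, 0.079 and 0.137 under the 2 scalings and the removal of length and GC trends.

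The labels give only replicate numbers 1 and 2. Deviations of same-numbered libraries correlated at -0.21 (overexpression and knockdown), -0.12 (overexpression and control) and 0.01 (knockdown and control), so no pairing was assumed. With the replicate block, 42 members fell and 3 rose under knockdown, against 28.6% and 13.4% of all tested rows. The causes of these shifts were not tested. With 2 libraries a group and no read counts, small differences could not be resolved.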
